A study of Arabidopsis thaliana with 8 samples.

Results

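The genes described here are encoded in the plastid and mitochondrial genomes of Arabidopsis thaliana. They were chosen by name: subunits of the plastid RNA polymerase (rpo), ribosomal proteins (rps, rpl), clpP, matK, accD, and the mitochondrial nad, cox, cob, atp and ccb genes. A gene counted only if the array's annotation gave it a probe set, a group of short probes read together, that names no other gene. This gave 36 genes of the 13356 with such a probe set. The names alone decided membership, although the set of names was drawn up with earlier results of these data known. A gene with several probe sets was read from the brightest of them, by its mean on the 8 arrays.

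By compartment, 22 of the genes were plastid and 14 mitochondrial. By role, 4 were RNA polymerase genes, 15 were ribosomal protein genes, 3 were other plastid genes, 10 were respiratory genes and 4 were ccb genes. All 19 transcription and translation genes were plastid genes and all 10 respiratory genes were mitochondrial, so role and compartment cannot be told apart in any comparison of these classes. No cob and no mitochondrial atp gene had a probe set of its own. A further 17 probe sets matched the names but also named another gene, and 11 of these named a nuclear gene as well. They were left out. Of the genes kept, 3 (ccb452, nad5 and nad6) were read from probe sets with the suffix _s_at. Whether these also read other transcripts was not tested.

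Plastids and mitochondria descend from bacteria and keep small genomes of their own. The plastid genome encodes the core of a bacterial-type RNA polymerase and part of the plastid ribosome, which together make the photosynthetic proteins encoded in the same genome. The mitochondrial genome encodes core subunits of the respiratory chain. Most other subunits, and nearly all factors that splice, edit and translate organelle RNA, are made from nuclear genes and imported. Organelle mRNAs mostly lack the stable poly(A) tail of nuclear mRNAs. The labels describe the labelling only as the array maker's standard protocol, and how fully it captured organelle RNA was not tested.

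The samples were whole seedlings aged 10 days and grown at 22 °C. One genotype was wild type, ecotype Col-1, and the other was L20, a single transgenic Arabidopsis line that overexpresses TabZIP6, a bZIP transcription factor gene from wheat. The promoter of the transgene is not given in the labels, and TabZIP6 has no probe set, so its level was not analysed here. Each genotype was sampled before cold and after 6 h at 4 °C, with 2 biological replicates in each of the 4 groups and 1 array per sample. The labels do not say what the replicates shared, so the p-values reflect only how far apart these samples lay, which may be technical.

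Values are the deposited log2 signals, with no missing entry. Array medians lay between 4.95 and 5.06, and upper quartiles between 6.28 in replicate 1 of wild type before cold and 6.65 in replicate 1 of L20 before cold. The replicate numbers stood apart in every group: over all probe sets the deviation of replicate 1 from replicate 2 in one group correlated with that in another at r = 0.34 to 0.84 across the 6 pairs of groups. Of the leaf, root and seed markers listed for the seedling label, 6 had a probe set. RCA, the Rubisco activase of green tissue, lay between 12.62 and 13.52 and the seed storage gene PAP85 between 4.27 and 4.60. Of 4 root markers, PYK10 lay between 8.51 and 9.60, EXPA7 between 4.41 and 5.41, EXPA18 between 3.70 and 4.46 and AGL42 between 3.37 and 3.82. Since signals of different probe sets cannot be set against each other, these levels do not test the label. A seedling extract mixes green and other tissue, so fewer cells of a type and less RNA per cell cannot be told apart in anything that follows.

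Signal of the polymerase genes ranged widely. The gene for the alpha subunit, rpoA, had the highest mean over the 8 arrays at 9.57, and rpoB, for the beta subunit, the lowest at 5.38, with rpoC1 (8.43) and rpoC2 (7.25), for the divided beta-prime subunit, between them. Probes differ in how strongly they bind, so signals do not rank genes by abundance and each gene is compared only with itself. The ribosomal protein genes spanned the widest range, from a mean of 4.13 for rps14 to 12.19 for rps4, both of the small subunit. Among the other plastid genes clpP, for the proteolytic subunit of the Clp protease, stood at 11.50, matK, a maturase for group II introns, at 11.28 and accD, for a subunit of acetyl-CoA carboxylase, at 9.49.

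The respiratory genes were dim. Their means lay between 3.65 for nad6 and 5.21 for nad9, both subunits of complex I, the NADH dehydrogenase. The median probe set of the array stood at 5.03, and 7 of the 10 respiratory genes lay below it, against 1 of the 19 transcription and translation genes. The ccb genes, which serve heme attachment to cytochrome c and are named ccm in later annotation, ran from 4.79 for ccb203 to 7.23 for ccb382. Background per probe was not analysed here, so which of the dim genes were above it was not tested.

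**Figure D1:**
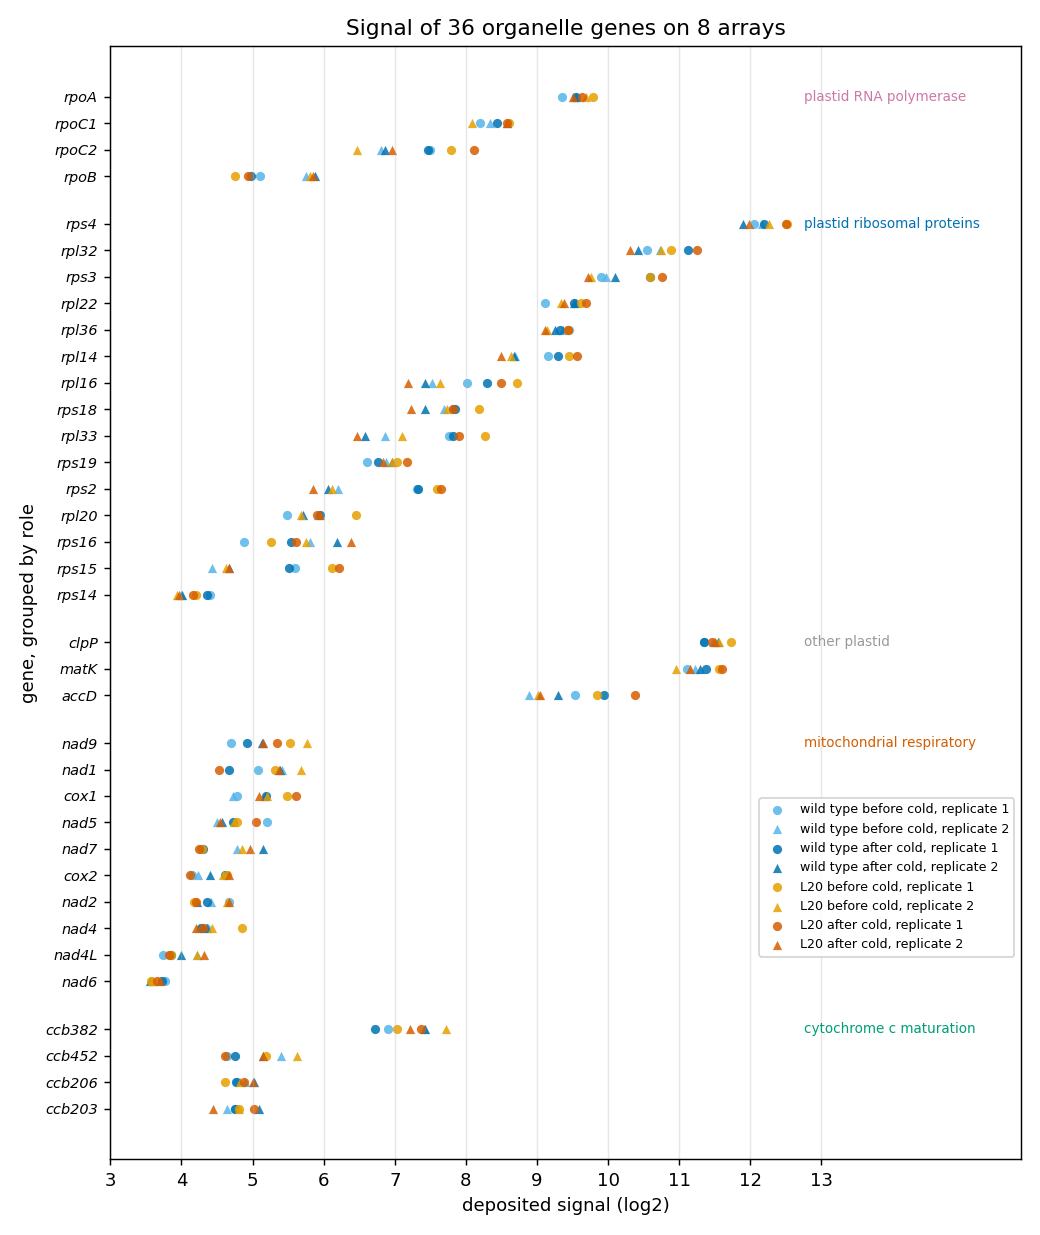
Deposited log2 signal (x axis) of the 36 organelle genes (y axis, grouped by role and ordered by mean) on each of the 8 arrays. Colour gives the group, circles are replicate 1 and triangles replicate 2; rps4 lies highest near 12.19 and nad6 lowest near 3.65, and for rps2, rps15, rpl33 and rpoB circles and triangles separate whatever the colour.

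The first question was what 6 h of cold did to these genes in wild type. No organelle gene passed the test: limma called 0 of 36 at an adjusted p under 0.05, where 0.532% of all probe sets were called. Adding the replicate number as a block again gave 0 of 36, against 1.57% of all probe sets. At an unadjusted p under 0.05 there were 0 members without the block (6.63% of all probe sets) and 2 with it (11.8%), namely cox1 and rps16. The median difference of the 36 genes, after minus before, was 0.06 on the log2 scale, beside 0.03 for all probe sets. The values ran from -0.26 for nad2 to 0.51 for rps16.

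Among the respiratory genes cox1, for the catalytic subunit of cytochrome c oxidase, had the smallest p. Its signal was 4.78 and 4.72 in wild type before cold and 5.20 and 5.18 after cold. Both cold arrays lay above both arrays before cold, by 0.44 ± 0.22 (SE, 2 arrays per group, limma adjusted p = 0.937). The other measured oxidase gene, cox2, stood at 4.14 and 4.24 before cold and 4.61 and 4.41 after it, a difference of 0.32 ± 0.22. The complex I gene nad2 stood at -0.26 ± 0.24, and the median of the 10 respiratory genes was -0.01.

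In the transcription and translation class rps16, for a small-subunit protein, had the largest difference. It stood at 4.88 and 5.81 before cold and at 5.54 and 6.18 after cold in wild type. The groups overlapped, since replicate 2 before cold lay above replicate 1 after cold, although the difference was positive in replicate 1 (0.66) and in replicate 2 (0.37). The fit gave 0.51 ± 0.42 (limma adjusted p = 1.00, and 0.235 with the block). The small-subunit gene rps3 stood at 0.41 ± 0.41 and the large-subunit gene rpl22 at 0.19 ± 0.22. For the polymerase genes the differences were 0.24 ± 0.21 for rpoC1, 0.11 ± 0.16 for rpoA, 0.01 ± 0.56 for rpoC2 and 0.00 for rpoB to 2 decimals.

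The remaining plastid genes accD (0.41 ± 0.51), matK (0.16 ± 0.26) and clpP (0.03 ± 0.17) had positive values in wild type. The ccb genes lay between -0.09 for ccb382 and 0.22 for ccb203, with ccb206 at 0.05. Groups did not overlap for 6 genes that were higher after cold (matK, cox1, cox2, rpoA, rpoC1 and rps3), where 16.9% of all probe sets did so, and for nad2 and rpl36, which were lower, where 12.3% did so.

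In L20 the same 6 h of cold gave no call either. Limma called 0 of 36 members, where 0.378% of all probe sets were called, and with the block 0 of 36, where 2.55% were. Unadjusted p-values under 0.05 numbered 0 (9.73% of all probe sets) and, with the block, 6 (16.8%): rps16 with a positive value and ccb452, nad1, nad4, rpl33 and rps18 with negative ones. The median difference was -0.01, beside 0.00 for all probe sets, and the range ran from -0.55 for nad1 to 0.50 for rps16.

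The complex I gene nad4 had the smallest p in L20. Signals of 4.86 and 4.43 before cold compared with 4.30 and 4.20 after it. Both cold arrays were lower, with a difference of -0.39 ± 0.19 (SE, limma adjusted p = 0.629). In wild type the same gene stood at 4.35 and 4.24 before cold and 4.27 and 4.36 after it, and the arrays overlapped. For nad9, of the matrix arm of complex I, the L20 difference was -0.40 ± 0.22. For nad1, one of the genes whose transcript is assembled by trans-splicing, it was -0.55 ± 0.36 on the brightest of its 7 probe sets. The other probe sets of nad1 stood at -0.44, -0.05, -0.01, 0.00, 0.03 and 0.11, so 1 of them was similar and 5 lay near 0.

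The ccb452 gene, called ccmFC in later annotation, had the lowest adjusted p with the block. It stood at 5.19 and 5.63 in L20 before cold and at 4.62 and 5.15 after cold. Both cold arrays lay below both arrays before cold, with a difference of -0.52 ± 0.33 (limma adjusted p = 0.790, and 0.138 with the block). Of the other ccb genes, ccb206 stood at 0.22 ± 0.18 and ccb203 at -0.07 ± 0.24.

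Of the 15 ribosomal protein genes in L20, 0 were called, 5 had positive values (50.1% of all probe sets) and 10 negative ones. The largest positive value was that of rps16 (0.50 ± 0.42), whose arrays read 5.26 and 5.75 before cold and 5.62 and 6.39 after it. The most negative were those of rps18 (-0.43 ± 0.28) and rpl33 (-0.50 ± 0.66), neighbouring genes of the plastid genome for a small-subunit and a large-subunit protein. The polymerase genes stood at 0.23 ± 0.21 for rpoC1, -0.17 ± 0.16 for rpoA and 0.40 ± 0.56 for rpoC2. The values of clpP (-0.16 ± 0.17), accD (0.28 ± 0.51) and matK (0.11 ± 0.26) were within their errors without the block. With the block those of clpP (SE 0.15) and accD (SE 0.20) exceeded their errors, again without a call. Groups did not overlap for 2 genes higher after cold (ccb206 and nad6, with 15.4% of all probe sets) and 5 lower (ccb452, clpP, nad4, nad9 and rpoA, with 18.1%).

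**Figure D2:**
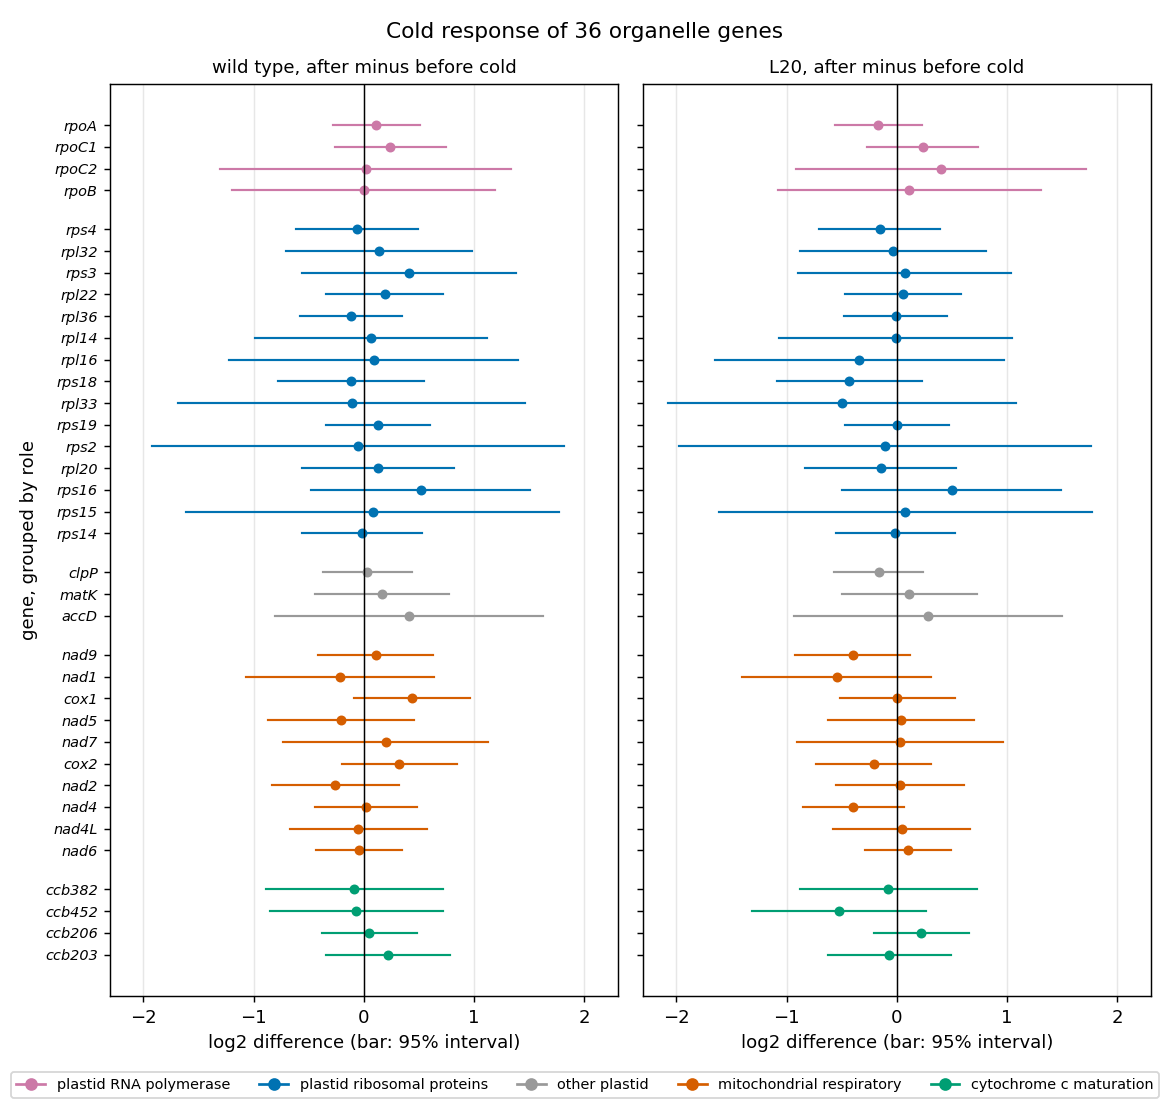
Cold response, after minus before, of the 36 genes (y axis, grouped by role) in wild type (left) and L20 (right), as log2 difference with its 95% interval from limma (x axis). Intervals cross 0 for every gene; cox1 at 0.44 and rps16 at 0.51 are among the highest points in wild type, and nad1 at -0.55 is the lowest in L20, a value that 5 of the other nad1 probe sets do not share.

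The next question was whether L20 differed from wild type before cold. Of the 36 genes, 28 had a positive difference, L20 minus wild type, where 57.0% of all probe sets did. Limma called 0 of 36, where 0.0176% of all probe sets were called. With the block it called 0 of 36, where 0.167% were. The median was 0.19, beside 0.04 for all probe sets, and was 0.37 between the arrays numbered 1 and 0.08 between those numbered 2. Centring each array on its median gave 0.15 and quantile normalization gave 0.07. Unadjusted p-values under 0.05 were found for 2 members, nad9 and cox1, where 5.54% of all probe sets had one, and for 3 with the block, ccb452 besides, where 11.1% did.

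The complex I gene nad9 stood at 4.69 and 5.15 in wild type and at 5.52 and 5.77 in L20 before cold. Both L20 arrays were higher than both wild-type arrays, with a difference of 0.73 ± 0.22 (95% interval 0.20 to 1.25, limma adjusted p = 0.630, and 0.230 with the block). After cold the same gene read 4.93 and 5.13 in wild type and 5.35 and 5.14 in L20, a difference of 0.22 ± 0.22.

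For cox1 the L20 arrays before cold read 5.49 and 5.21, above the wild-type values of 4.78 and 4.72. The difference was 0.60 ± 0.22 (95% interval 0.07 to 1.12, limma adjusted p = 0.822). After cold the L20 arrays read 5.61 and 5.09 and overlapped those of wild type. The cox2 gene, for the copper-binding subunit of the same oxidase, stood at 4.64 and 4.58 in L20 before cold, above both wild-type values, with a difference of 0.42 ± 0.22. Not every respiratory gene had a positive value: nad2 (-0.13), nad6 (-0.11) and nad5 (-0.09) were lower in L20.

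Among the plastid genes rpoA stood at 9.35 and 9.52 in wild type and 9.79 and 9.69 in L20 before cold. These arrays did not overlap, with a difference of 0.30 ± 0.16 that was not called. The other polymerase genes stood at 0.07 ± 0.21 for rpoC1, -0.02 ± 0.56 for rpoC2 and -0.14 ± 0.50 for rpoB. Without the block their 95% intervals were wide and all held the value of rpoA. With the block the SE was 0.19 for rpoC1, 0.21 for rpoC2 and 0.15 for rpoB. Whether these genes differed from rpoA was not tested. Of the 15 ribosomal protein genes 13 had positive values (57.0% of all probe sets), among them rps19 (0.26 ± 0.20), rpl20 (0.37 ± 0.29) and rps4 (0.29 ± 0.23). The median of the 15 was 0.43 between the arrays numbered 1 and -0.05 between those numbered 2, and 9 had the same sign in both. Of 43 photosynthesis genes of the plastid genome 38 were positive, with medians of 0.52 and 0.03, so the lean was not particular to ribosomal protein genes. For rpl20 the difference was 0.98 in replicate 1 and -0.24 in replicate 2. The clpP gene stood at 0.23 ± 0.17, accD at 0.22 ± 0.51 and matK at 0.09 ± 0.26. Of the ccb genes, ccb452 stood at 0.39 ± 0.33, ccb382 at 0.21 ± 0.34 and ccb206 at -0.12 ± 0.18. In all, groups did not overlap for 10 genes higher in L20 (17.4% of all probe sets) and for nad6, which was lower (10.3%).

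After cold the genotype difference had a median absolute value of 0.09 over the 36 genes, against 0.19 before cold, while over all probe sets it was 0.09 against 0.16. Limma called 0 of 36 members with and without the block, where 0.00% of all probe sets were called in either fit, and 0 members had an unadjusted p under 0.05 in either (0.0835% and 0.567% of all probe sets). The median was 0.04, with values from -0.18 for ccb203 to 0.37 for rpoC2. The rpoC2 arrays read 7.47 and 6.87 in wild type and 8.11 and 6.96 in L20 after cold, so the replicates of one group lay further apart than the group means, and the difference was 0.37 ± 0.56. Groups did not overlap for 1 gene, nad9, which was higher in L20, as were 8.0% of all probe sets, and for 0 genes that were lower, where 6.81% were. The ribosomal protein genes rps4 (0.19 ± 0.23), rps19 (0.14 ± 0.20) and rps14 (-0.12 ± 0.23) had the smallest p-values of their class. The respiratory genes cox1 (0.17 ± 0.22) and nad2 (0.15 ± 0.24), the polymerase genes rpoC1 (0.07 ± 0.21) and rpoA (0.02 ± 0.16), and accD (0.09), matK (0.04) and clpP (0.03) were all within their errors. Of the ccb genes, ccb382 stood at 0.22 ± 0.34 and ccb206 at 0.05 ± 0.18.

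**Figure D3:**
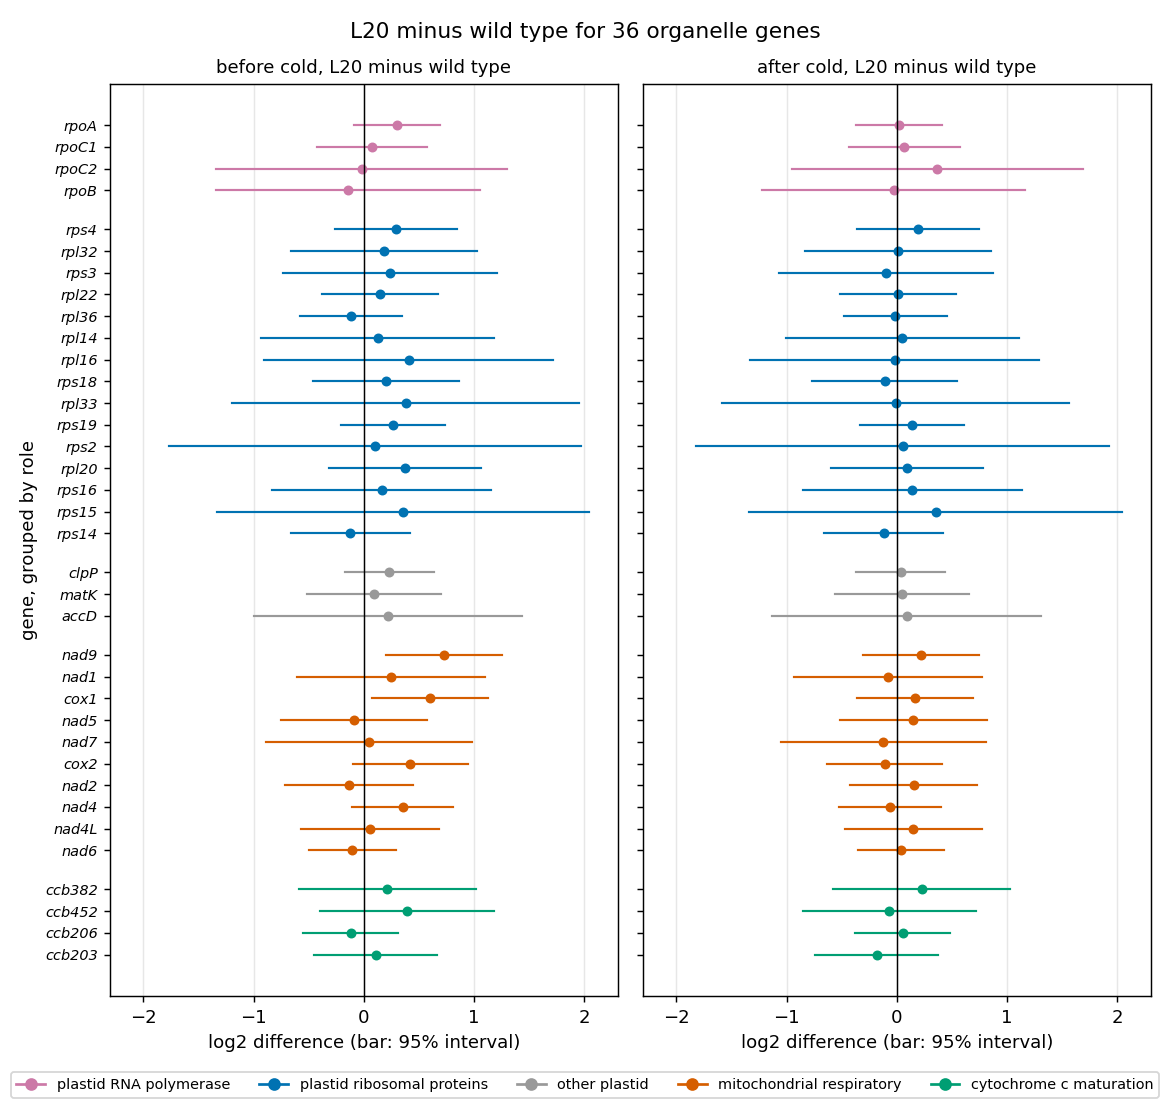
L20 minus wild type for the 36 genes (y axis, grouped by role) before cold (left) and after cold (right), as log2 difference with its 95% interval from limma (x axis). Before cold nad9 (0.73) and cox1 (0.60) are the 2 genes whose interval lies above 0, and after cold every interval crosses 0.

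The difference of the cold responses, L20 minus wild type, was tested in the same fit. Limma called 0 of 36 members with and without the block, where 0.00% of all probe sets were called in both, and 0 had an unadjusted p under 0.05 (2.18% of all probe sets, and 5.34% with the block). The contrast shares the wild-type and L20 arrays before cold with the genotype comparison, so its values are not separate evidence. Negative values were found for 26 of 36 genes and for 12818 of all 22746 probe sets. The median was -0.13 beside -0.04 for all probe sets, and quantile normalization gave a median of 0.01 for the 36 genes. The lowest value was that of cox2 (-0.53 ± 0.31), followed by nad9 (-0.51 ± 0.31). The cox2 arrays of L20 after cold read 4.13 and 4.67, one below and one above those of L20 before cold. Further values were -0.41 ± 0.28 for nad4, -0.46 ± 0.47 for ccb452, -0.28 ± 0.23 for rpoA, -0.31 ± 0.39 for rps18 and -0.19 ± 0.24 for clpP, and the highest was 0.39 ± 0.79 for rpoC2.

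How closely the differences were estimated depended on the fit. The intervals given here are not adjusted for the number of probe sets, so they do not mark the size of a change that would be called. Before cold nad9, at 0.73, was not called. Without the block, the 95% interval of a genotype or cold difference reached a median of 0.64 log2 to either side over the 36 genes, 0.84 for transcription and translation genes and 0.55 for respiratory genes. In the blocked fit the medians were 0.44, 0.44 and 0.41, so the classes then lay close together. An interval within a 2-fold change in either direction was found without the block for 24 genes for cold in wild type, 23 for cold in L20, 19 for the genotypes before cold and 24 after cold. With the block these counts were 35, 36, 33 and 36. For the difference of the cold responses the median half-width was 0.91 without the block and 0.62 with it, and 12 and 26 genes had an interval within a 2-fold change.

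Transcription and translation genes were then set against respiratory genes. For cold in wild type the 19 genes had a median of 0.08 and the 10 respiratory genes of -0.01, a difference between classes of 0.09. In L20 the medians were -0.01 and 0.02, and the difference was -0.03. Between the genotypes the medians were 0.18 and 0.15 before cold (difference 0.03) and 0.02 and 0.09 after cold (difference -0.08). For the difference of the cold responses they were -0.10 and -0.25 (difference 0.16). The spread between replicates of such a class difference, pooled over the 5 comparisons, was 0.202 (SD), larger than all 5 values. That SD describes a value from 1 replicate number, while the 5 values use both, so it is not their standard error.

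The class difference also depended on the replicate number. Before cold it was 0.23 between the arrays numbered 1 and -0.29 between those numbered 2. After cold it was 0.18 and -0.10 for the same genotype comparison. The 43 photosynthesis genes of the plastid genome, given for comparison, had medians of 0.16 for cold in wild type, -0.13 for cold in L20 and 0.28 for L20 minus wild type before cold.

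**Figure D4:**
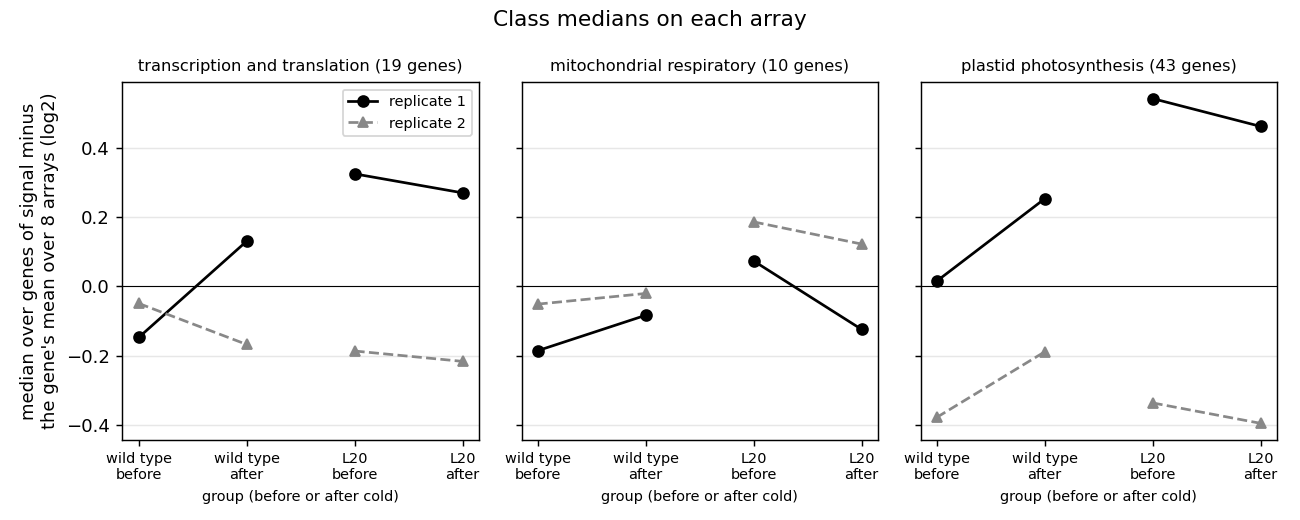
Median over genes of the log2 signal minus the gene's mean over the 8 arrays (y axis) for 19 transcription and translation genes, 10 respiratory genes and 43 plastid photosynthesis genes, by group (x axis) and replicate; lines join the arrays of a genotype with the same number. Replicate 1 lies above replicate 2 on each array pair of the photosynthesis genes, and for the respiratory genes replicate 1 lies below replicate 2.

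The largest differences among the organelle genes lay between the replicate numbers. This contrast, replicate 1 minus replicate 2 over all 4 groups in the fit with the block, was added after the data were seen. Limma called 12 of 36 members (17.8% of all probe sets), 7 of them higher in replicate 1 (6.89%) and 5 higher in replicate 2 (10.9%). The absolute difference between replicate numbers had a median of 0.33 over the members and 0.22 over all probe sets. It was larger than the cold difference in 27 of 36 genes in wild type and in 25 in L20, and larger than the genotype difference in 22 before cold and in 29 after cold. The matching counts over all probe sets were not made. For the same 4 comparisons the median absolute difference over all probe sets was 0.15, 0.18, 0.16 and 0.09, each below that 0.22. A larger replicate difference was thus not particular to the organelle genes. Leaving out either array of a group gave the same counts, since its partner then adds nothing to this contrast. The count of 12 depended on which group lost an array. It was 3 without either array of wild type after cold (2.29% of all probe sets called) and 4 without either array of L20 after cold (3.14%). It was 12 without either array of L20 before cold (12.1%) and 15 without either of wild type before cold (26.2%).

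The clearest case was rps2, for a protein of the small ribosomal subunit. In replicate 1 it stood at 7.31 and 7.32 in wild type before and after cold and at 7.59 and 7.64 in L20. In replicate 2 the same groups read 6.20, 6.07, 6.11 and 5.85. All 4 arrays numbered 1 lay above all 4 numbered 2, and the difference was 1.41 ± 0.14 (SE, limma adjusted p = 0.003).

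The small-subunit gene rps15 read 5.59, 5.51, 6.11 and 6.21 in replicate 1 and 4.43, 4.67, 4.62 and 4.67 in replicate 2, in the same order of groups, a difference of 1.26 ± 0.14. The large-subunit gene rpl33 read 7.76, 7.81, 8.27 and 7.90 against 6.86, 6.58, 7.10 and 6.47, a difference of 1.19 ± 0.12. In both genes the arrays separated fully by replicate number. The other members called higher in replicate 1 were rpoC2 (0.94 ± 0.15), rpl16 (0.94 ± 0.15), accD (0.87 ± 0.14) and rpl14 (0.74 ± 0.13).

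Not all plastid genes leaned the same way. The polymerase gene rpoB read 5.10, 4.97, 4.75 and 4.94 in replicate 1 and 5.75, 5.88, 5.81 and 5.85 in replicate 2. Replicate 1 was lower in all 4 groups, with a difference of -0.88 ± 0.11 (limma adjusted p = 0.006). The gene rps16 was also lower in replicate 1 (-0.71 ± 0.11). Of the polymerase genes, rpoC1 (0.06 ± 0.14) and rpoA (0.02 ± 0.10) were not called, so the 4 subunit genes did not differ alike.

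Of the 14 mitochondrial genes 3 were called, all of them higher in replicate 2. Over all probe sets 10.9% were called higher in replicate 2 and 6.89% higher in replicate 1. The complex I gene nad7 read 4.27, 4.30, 4.29 and 4.24 in replicate 1 and 4.78, 5.15, 4.85 and 4.96 in replicate 2, with no overlap, a difference of -0.66 ± 0.10. The nad1 probe set with the highest mean stood at -0.57 ± 0.12 and ccb452 at -0.53 ± 0.10. Of the 7 probe sets of nad1, a second one was also called (-0.71), and the other 5 lay between -0.20 and 0.19. The 2 probe sets of nad5 pointed in opposite directions, at 0.35 and -0.35, and neither was called.

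By class, 8 of 19 transcription and translation genes and 2 of 10 respiratory genes were called between the replicate numbers (17.8% of all probe sets). The respiratory count lay near that share. The class medians were 0.31 and -0.11. Of the photosynthesis genes 27 of 43 were called, 25 of them higher in replicate 1 (6.89% of all probe sets), with a median of 0.77. The array has 45 control probe sets for added RNA, pooled here whatever the step at which it is added. Of these, 2 were higher in replicate 1 in all 4 groups (17.2% of all probe sets) and 14 higher in replicate 2 (24.0%). The mean differences of the 45 control probe sets ran from -1.84 to 0.74. Their median absolute difference was 0.18, beside 0.22 for all probe sets. Their part in the result was not tested, and the labels do not say whether a replicate number marks a shared day or hybridization.

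**Figure D5:**
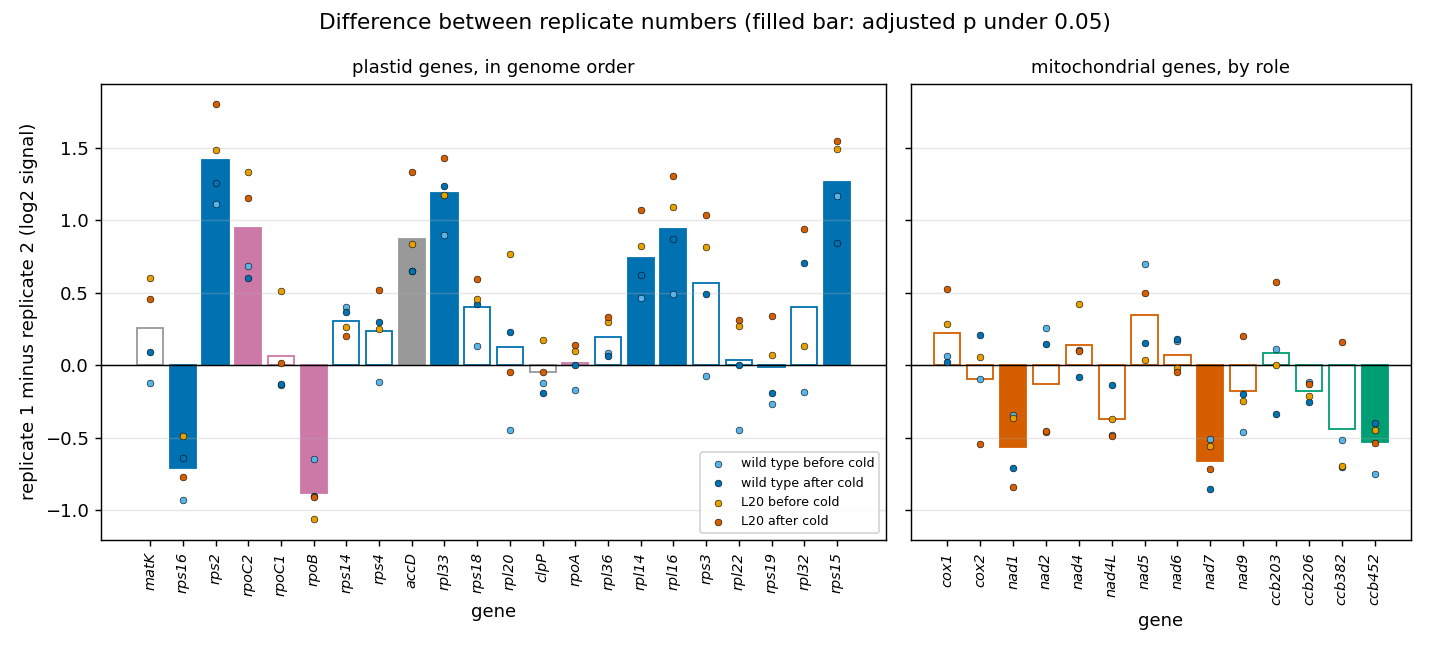
Replicate 1 minus replicate 2 (y axis, log2 signal) for the plastid genes in genome order (left) and the mitochondrial genes by role (right), on the x axis. Bars are means over the 4 groups, points are the groups, bar colour marks the role and a filled bar an adjusted p under 0.05; rps2 (1.41) is the highest and rpoB (-0.88) the lowest, and the 3 filled mitochondrial bars, nad1, nad7 and ccb452, point down.

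Genes that lie side by side in the plastid genome, some of which are transcribed together, did not always share their replicate difference. Along the rps2, rpoC2, rpoC1 and rpoB cluster the values were 1.41, 0.94, 0.06 and -0.88, which include the highest and the lowest value of the 36 genes. In the ribosomal protein cluster the values were 0.20 for rpl36, 0.74 for rpl14, 0.94 for rpl16, 0.57 for rps3, 0.03 for rpl22 and -0.01 for rps19. For rpl33, rps18 and rpl20, which also follow each other, they were 1.19, 0.40 and 0.13. Over 57 neighbouring pairs among 65 measured plastid genes the correlation of this difference was r = 0.22 (Spearman 0.21), a weak value given as a description, since genes share the same 8 arrays. The median gap between neighbours was 0.47, against 0.61 over all 2080 pairs. Cluster order was taken from the reference annotation, and no strand or transcript was measured here, so which neighbours share a transcript was not tested.

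Nuclear genes that serve the organelle genes were read from lists whose members were chosen with earlier results of these data known. Of the 29 listed partners of the plastid polymerase found in the annotation, 0 had a probe set of their own. The same held for most others: 11 of 56 plastid RNA and translation factors, 2 of 46 mitochondrial RNA factors, 5 of 20 genes of alternative respiration and 8 of 44 nuclear respiratory genes were measured. Limma called 0 members of any of these lists in any of the 5 comparisons, and 1 with the block, NDB2 for cold in wild type, where 1.57% of all probe sets were called. At an unadjusted p under 0.05 there were 1 of 11, 0 of 2, 3 of 5 and 1 of 8 members for cold in wild type (6.63% of all probe sets), in the same order of lists. For cold in L20 there were 1, 0, 1 and 2 (9.73%), and before cold 0, 0, 1 and 1 for the genotypes (5.54%).

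NDB2 encodes an alternative NADH dehydrogenase on the outer face of the inner mitochondrial membrane, which passes electrons to ubiquinone without pumping protons. It stood at 4.62 and 4.58 in wild type before cold, and at 6.78 and 6.58 after cold. In L20 it read 7.55 and 6.11 before cold and 6.85 and 6.53 after it. The wild-type arrays before cold were lower than the 6 others, which overlapped.

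The cold difference of NDB2 in wild type was 2.08 ± 0.43 (limma adjusted p = 0.152, and 0.0422 with the block, with 0.0317 to 0.708 over its 14 alternatives). Before cold L20 stood 2.23 ± 0.43 above wild type (limma adjusted p = 0.284, and 0.0833 with the block). Both values use the same wild-type arrays. The difference of the cold responses was -2.23 ± 0.61 (limma adjusted p = 1.00).

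In the same list NDC1, another alternative dehydrogenase, differed after cold by 0.63 ± 0.19 in wild type and 0.58 ± 0.19 in L20, and NDB4 by 0.59 ± 0.20 in wild type and 0.44 ± 0.20 in L20. Before cold NDB4 stood at 0.16 ± 0.20 in L20 against wild type. None of these was called by limma.

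Of the nuclear respiratory genes, CYTC-2, for cytochrome c, differed after cold by 1.24 ± 0.32 in wild type (limma adjusted p = 0.263) and 0.81 ± 0.32 in L20. The second cytochrome c gene, CYTC-1, stood at -0.97 ± 0.33 after cold in L20, and at 0.83 ± 0.33 in L20 against wild type before cold. In that comparison CCMH, a nuclear partner of the ccb genes in cytochrome c maturation, stood at 0.58 ± 0.32. The succinate dehydrogenase gene SDH2-1 stood at 0.66 ± 0.47 after cold in wild type.

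Among plastid RNA and translation factors OTP84, an RNA editing factor, differed after cold by 0.70 ± 0.27 in wild type and 0.91 ± 0.27 in L20, without a call. The translation initiation factor gene FUG1 stood at 0.53 ± 0.38 and 0.78 ± 0.38 for the same comparisons. Before cold FUG1 stood at -0.40 ± 0.38 in L20 against wild type, and CRR22, an editing factor, at 0.23 ± 0.21. The mitochondrial factors OTP43 and OTP87 lay between -0.23 and 0.24 in the cold comparisons and before cold. After cold the lists differed between genotypes by -0.24 to 0.21, with 0 members at an unadjusted p under 0.05.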

How the data were processed

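The authors deposited log2 values for 22810 probe sets on 8 arrays. The submitters' processing notes name RMA, without a version. RMA can bring arrays to a shared distribution, but the deposited arrays did not share one. Upper quartiles ran from 6.28 (wild type before cold, replicate 1) to 6.65 (L20 before cold, replicate 1). A joint normalization of the 8 arrays is therefore not assumed. Changes are relative and can include differences between whole arrays. After 64 control probe sets were left out, 22746 were tested: 13513 named 1 gene, 503 several and 8730 none. Names came from the platform annotation, updated with RefSeq names of TAIR10.1: 22 members matched by Entrez identifier and 14 by symbol or synonym. No sequence or coordinate is shown.

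Groups came from the sample titles. The test was limma 3.58.1 in R 4.3.3 (a mean per group over all 8 arrays, eBayes, two-sided, Benjamini-Hochberg over 22746 probe sets), with calls at an adjusted p under 0.05, and was tested on simulated data. With 2 arrays a group, the smallest two-sided p of an exact permutation test would be 0.333. Replicate numbers were treated as shared, from the data and not the labels: their deviations correlated at 0.34 or more in all 6 pairs of groups.

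The members and lists were chosen with earlier results of these data known. Named were members called in any comparison, the 3 with the smallest p per class and comparison, and the highest and lowest of each class; of nuclear lists, those called or the 2 with the smallest p. Some of these are given only within a range for space.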

Additional observations from a re-analysis of the deposited data

How the results depend on the processing

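Limma called 0 organelle genes in the 5 comparisons of cold and genotype under each alternative run: the replicate block, each array left out in turn, trend and robust settings, a minimum mean of 5, 2 other scalings, any probe set of a gene, and the compared groups alone. Of 70 fits over all probe sets, 39 called no probe set at all, so that 0 members followed there. These were all 14 for the genotypes after cold, all 14 for the difference of the responses, 8 for the genotypes before cold, 2 for cold in L20 and 1 for cold in wild type. For transcription and translation minus respiratory genes, 31 of 80 alternative values equal the reported one by construction, those with the replicate block among them. Of the other 49, 35 moved by less than the spread between replicates and 14 by more. With only members of a mean of at least 5, which leaves 3 respiratory genes, the class difference was 0.39 for cold in L20 and -0.41 for L20 minus wild type before cold. With 1 array left out it ran from -0.30 to 0.27 for cold in wild type, -0.20 to 0.46 for cold in L20, -0.42 to 0.42 between genotypes before cold, -0.35 to 0.35 after cold and -0.39 to 0.43 for the difference of the responses. The 12 calls between replicate numbers, a comparison added with its alternatives after the data were seen, became 3 to 15 with 1 array left out (520 to 5951 of all probe sets called) and 11 to 15 otherwise (2063 to 5689). NDB2 passed for cold in wild type with the replicate block (adjusted p = 0.0422), with the compared groups alone (0.0460) and without either array of L20 before cold (0.0317). Mitochondrial ribosomal proteins against respiratory genes was not run, since no such gene had a probe set of its own. Signal over background was not analysed here.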
